A study of Mus musculus with 8 samples.

Results

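Glucose uptake and glycolysis are followed here through 10 genes that span the route from the cell surface to lactate: Slc2a1, Hk1, Hk2, Pfkl, Pfkp, Aldoa, Pgk1, Eno1, Pkm2 (now named Pkm) and Ldha. The list was given by symbol, with earlier results of these data known, and with the identifier of highest mean to be kept wherever a symbol had several. Each of the 10 symbols had 1 identifier, all protein coding, and all 10 were among the 15880 genes with values.

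The study asked how stromal cells of newborn bone marrow differ by the activity of nestin regulatory elements and by the surface receptor Pdgfra. RNA was sequenced from 4 sorted populations, with 2 libraries per population and 8 libraries in all. Every population came from mice heterozygous for Nes-Gfp, a transgene in which nestin regulatory elements drive GFP, on the C57BL/6 background at postnatal day 1, and each library was a pool of 3 pups. Bones were crushed and digested with collagenase, cells bearing CD45, CD31 or Ter119 were gated out, and the rest was sorted by GFP and by Pdgfra, after which cDNA was amplified before sequencing.

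The population without either mark is called double-negative, the one with GFP and no Pdgfra is called GFP-only, the one with Pdgfra and no GFP is called Pdgfra-only, and the one with both is called double-positive. A transgene reports where its regulatory elements are active, so GFP does not by itself measure the endogenous Nes transcript. The libraries held between 3221217 and 5302762 reads on genes, with a median of 3604130. A level, here and in every sum of levels, is reads plus 0.5 for each 1e6 of the library's effective size after scaling, and a count of 3 reads corresponds to a level between 0.825 and 1.04 depending on the library. The fewest reads behind any member in any library was 9, and these reads carry no molecular identifiers, so counting error is the only error that such depth covers.

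The double-negative libraries departed from the stromal label and are described first, because most of the differences below rest on them. All 9 erythroid markers were among the genes with values, and they summed to 13941 and 22040.0 in the double-negative libraries, against 169 and 85.5 in GFP-only, 57.1 and 40.5 in Pdgfra-only and 47.4 and 47.9 in double-positive libraries. Hbb-b1 was the most abundant of them, at 4362 and 7619 in the double-negative libraries and between 12.9 and 51.4 elsewhere. The Ter119 gate should remove maturing red cells. The 10 proliferation genes, led by Mki67, summed to 8604 and 9649 in the double-negative libraries, 1072 and 904 in GFP-only, 293 and 225 in Pdgfra-only and 596 and 502 in double-positive libraries. The 8 mesenchymal stroma markers, led by Col1a2, summed to 474 and 567 in the double-negative libraries, 3896 and 3389.9 in GFP-only, 26269 and 24606 in Pdgfra-only and 44578 and 36482 in double-positive libraries. Erythroid and proliferation genes were thus high, and mesenchymal markers low, in both double-negative libraries. Their part in the differences of glycolysis genes was not tested.

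Markers of other cells also separated the populations. The 11 skeletal muscle markers, led by Des, summed to 612 and 586 in GFP-only libraries and to between 31.5 and 81.1 in the other 6. The 6 smooth muscle and pericyte markers, led by Rgs5, summed to 1589 and 2088 in GFP-only and to between 61.8 and 371 elsewhere. The 6 Schwann cell markers, led by Erbb3, summed to 411 and 383 in GFP-only and to between 19.7 and 101 elsewhere. GFP-only libraries were therefore the highest for these 3 lists. The 6 osteoblast markers, led by Col1a1, summed to 464 and 594 in double-negative, 3332 and 2776 in GFP-only, 17030.0 and 15498 in Pdgfra-only and 54713 and 40736 in double-positive libraries. The 7 chondrocyte markers, led by Col2a1, summed to 554 and 975 in double-negative, 71.3 and 100.2 in GFP-only, 678 and 2128 in Pdgfra-only and 311 and 408 in double-positive libraries. The 9 leukocyte markers, led by Lyz2, summed to 81.4 and 75.6 in double-negative libraries and to between 6.49 and 33.6 elsewhere, so they too were highest in double-negative. The 6 endothelial markers, led by Tek, summed to between 31.6 and 121. The 10 stress and dissociation genes, led by Egr1, summed to 565 and 741 in double-negative, 5597 and 6919.8 in GFP-only, 1272 and 886 in Pdgfra-only and 1956 and 1678 in double-positive libraries. Of the 4 sort markers, Pdgfra had the highest mean over the 8 libraries, at 3.30 and 4.36 in double-negative, 18.1 and 10.4 in GFP-only, 839 and 794 in Pdgfra-only and 733 and 754 in double-positive libraries. Nes was at 3.59 and 9.08 in double-negative, 149 and 176 in GFP-only, 27.4 and 47.1 in Pdgfra-only and 57.6 and 72.0 in double-positive libraries. No marker in any of these lists had 3 or fewer reads in all 8 libraries. What these markers contribute to the levels of the glycolysis genes was not tested, and fewer cells of a type cannot be told apart from less RNA per cell in sorted bulk samples.

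Glycolysis breaks glucose down to pyruvate in the cytosol: facilitated carriers let glucose in, hexokinase traps it by phosphorylation, phosphofructokinase commits it to the pathway, and the later enzymes cleave the sugar and recover ATP. Lactate dehydrogenase then reduces pyruvate to lactate, which regenerates the NAD that the pathway needs when pyruvate is not burned in mitochondria. Bone-forming cells are known for taking up much glucose and releasing lactate even with oxygen present, and mature red cells, which have no mitochondria, live on glycolysis.

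Glycolysis genes differed mainly between the double-negative population and the other 3, as did genes at large. The members did not rise or fall together. Slc2a1, Hk1, Pfkl, Eno1 and Ldha were higher in both double-negative libraries than in any other library, Pfkp and Pkm2 were lower there than in any other, and Hk2, Aldoa and Pgk1 overlapped with other populations. A gene is called different when its limma p, adjusted over all 15880 genes, is at or under 0.05.

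In the test of any difference among the 4 populations, 9 of the 10 members were called, against 66.0% of all genes, and the exception was Aldoa with a limma adjusted p of 0.643. Most genes at large differed in this test too, so the share called says less about the members than their directions do. With each library left out in turn the count lay between 6 and 9. It was 6 without double-negative replicate 1, when Slc2a1, Hk2 and Eno1 were no longer called.

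GFP was compared in Pdgfra-negative cells as GFP-only minus double-negative. There 7 of 10 members were called, against 53.7% of all genes. The 5 called lower were Slc2a1, Hk1, Pfkl, Eno1 and Ldha, beside 23.6% of all genes called lower. The 2 called higher were Pfkp and Pkm2, beside 30.1% called higher. The members' median log2 difference was -0.32, beside 0.15 over all genes. The members ran from -3.14 to 2.60 around that median, and the all-gene median depends on the scaling, shifting by -0.45 with median centring.

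Pdgfra was compared in GFP-negative cells as Pdgfra-only minus double-negative. Here 8 of 10 members were called, against 59.7% of all genes. The 6 called lower were Slc2a1, Hk1, Pfkl, Pgk1, Eno1 and Ldha, beside 26.8% of all genes, and the 2 called higher were again Pfkp and Pkm2, beside 32.9%. The median log2 difference was -0.54 over the members and 0.17 over all genes. Without double-negative replicate 1 the count of members called was 5, since Slc2a1, Pgk1 and Eno1 then missed the threshold.

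Both marks together were compared as double-positive minus double-negative. Again 8 of 10 members were called, against 59.3% of all genes. The same 6 members as in Pdgfra-only were called lower, beside 26.4% of all genes, and Hk2 and Pkm2 were called higher, beside 32.9%. The median log2 difference was -0.70 over the members and 0.20 over all genes. These 3 comparisons use the same double-negative libraries, so their likeness is no independent support for any of them, and their values are given side by side.

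Fewer members, as fewer genes at large, were called among the populations other than double-negative. GFP within Pdgfra-positive cells, double-positive minus Pdgfra-only, gave 0 members called by limma, against 5.35% of all genes. At an unadjusted p under 0.05 limma had 2 members, Hk2 and Pfkp, and edgeR and voom called 0 each at the adjusted threshold. The median log2 difference was -0.06 over the members and 0.01 over all genes. Over all genes this comparison called 849, and leaving out either Pdgfra-only library or either double-positive library brought that to 306, 246, 350 and 517 in turn. Without both double-negative libraries the fit still called 0 members, against 7.09% of all genes.

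Pdgfra within GFP-positive cells, double-positive minus GFP-only, called 2 of 10 members, against 24.2% of all genes: Pgk1 was lower and Ldha was higher. That share is near the share of all genes and is no result about the list. The median log2 difference was -0.14 over the members and -0.03 over all genes. With both double-negative libraries left out, 3 members were called, Pfkp, Pgk1 and Ldha, against 25.5% of all genes. Without GFP-only replicate 2, or without double-positive replicate 1, the count was 1, and Ldha was the member lost.

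The populations with a single mark, GFP-only minus Pdgfra-only, differed in 1 of 10 members, Pgk1, against 27.9% of all genes. The median log2 difference was 0.03 over the members and 0.03 over all genes. Without the double-negative libraries the count was again 1, against 29.1% of all genes. It was 0 when any of the 4 libraries compared was left out.

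The interaction asks whether the GFP difference depends on Pdgfra. It was called for 5 of 10 members, Slc2a1, Hk1, Pfkp, Pkm2 and Ldha, against 44.3% of all genes. Its median was 0.66 over the members and -0.16 over all genes. The double-negative libraries enter this test as well, and its calls draw on a spread pooled across genes with 4 residual degrees of freedom. For a comparison of 1 pair of populations, swapping the labels of their 4 libraries in a two-sided exact permutation could give a p of 0.333 at the lowest.

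**Figure D1:**
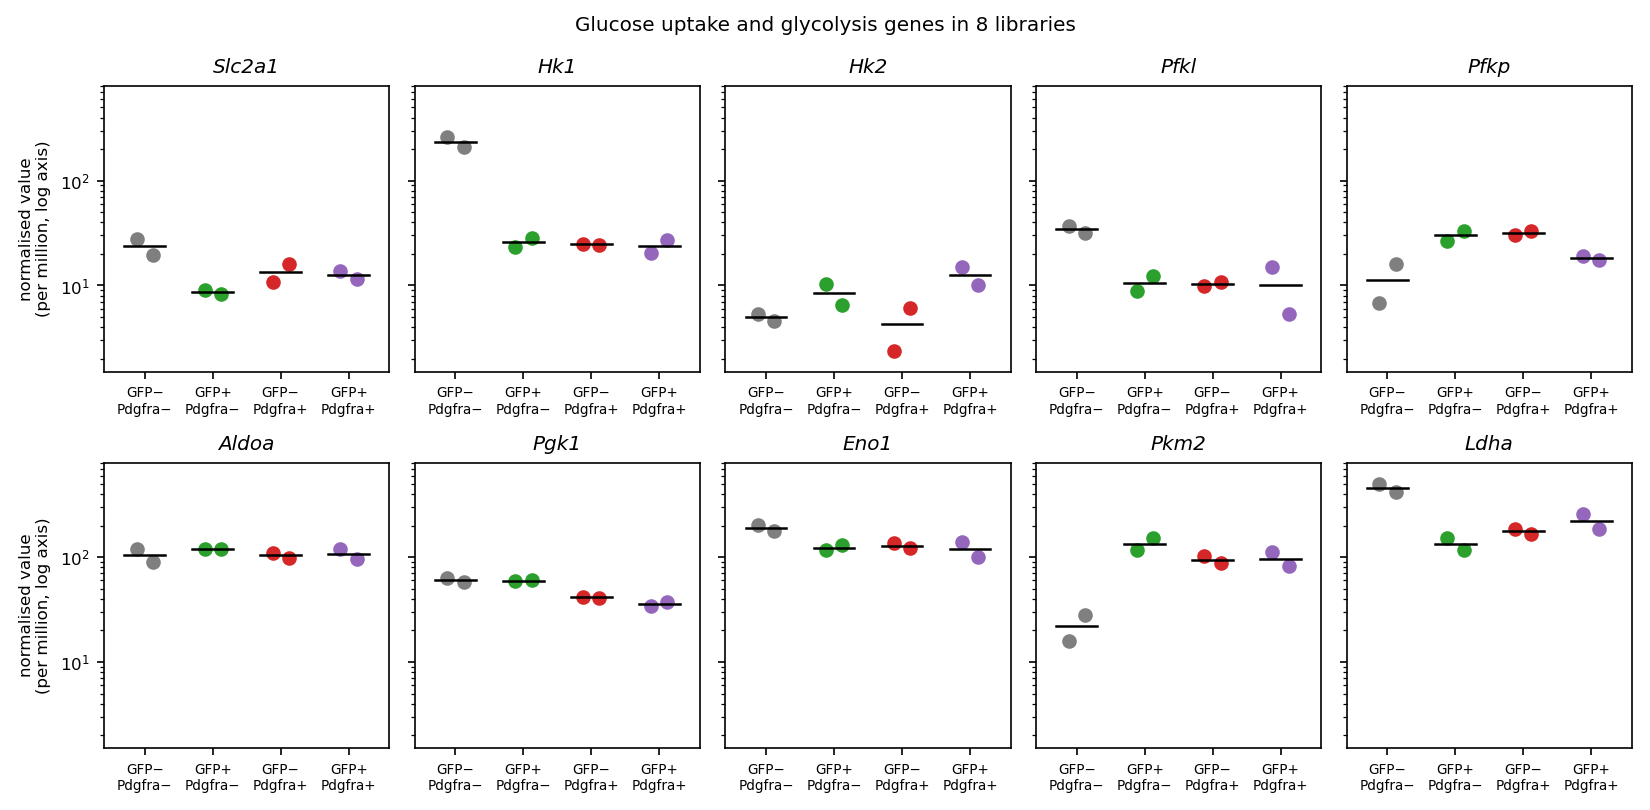
Level of each of the 10 members in each of the 8 libraries, in reads per 1e6 on a log axis, with dots for libraries and a line for the mean of a population. Hk1 sits at 262 and 209.8 in the double-negative libraries and at or under 28.4 in the other 6, Pkm2 sits at 15.9 and 27.9 there and at or above 82.4 elsewhere, and Aldoa lies between 90.4 and 119 throughout.

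The transcript of the most widespread glucose carrier was highest in the double-negative population, while uptake itself was not measured. Slc2a1 (ENSMUSG00000028645, NCBIM37 chr4:118781316-118809935, forward strand) encodes the facilitated carrier that serves basal uptake in most tissues. Its level was 27.7 and 19.7 in double-negative, 9.11 and 8.36 in GFP-only, 10.7 and 16.2 in Pdgfra-only and 13.7 and 11.6 in double-positive libraries. Both double-negative libraries lay above every other library, and the remaining populations ran in the order Pdgfra-only, double-positive, GFP-only with no neighbours in that run differing by limma. The mean was 23.7 ± 5.68 (SD, n = 2) in double-negative libraries, 2.04 times the mean of the other 6.

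Against double-negative, Slc2a1 differed by a log2 value of -1.33 in GFP-only (limma adjusted p 0.00263), by -0.78 in Pdgfra-only (0.0412) and by -0.84 in double-positive cells (0.0302), with a standard error of 0.30. The fall in GFP-only was called under every setting tried. The Pdgfra-only difference was -0.54 (0.245) without double-negative replicate 1 and -0.50 (0.259) without Pdgfra-only replicate 1. It also missed the threshold without either GFP-only library (0.0563 and 0.0555) and with the compared populations fitted alone (0.0634), in a range of adjusted p from 0.0036 to 0.259. The double-positive difference was -0.60 (0.199) without double-negative replicate 1, -0.95 (0.0525) without double-positive replicate 1 and -0.73 (0.122) without double-positive replicate 2, in a range from 0.00229 to 0.199. So the rise of Slc2a1 in the double-negative population was firm against GFP-only and depended on single libraries against the others. The interaction was 1.27 (0.0299), and it is the least firm of the 5 called. It missed the threshold without double-negative replicate 1 (1.03, 0.112), GFP-only replicate 1 (1.32, 0.0617), GFP-only replicate 2 (1.21, 0.0823), Pdgfra-only replicate 1 (0.99, 0.115) or double-positive replicate 1 (1.16, 0.0796), and with mitochondrial genes left out (1.13, 0.0548), in a range from 0.00644 to 0.115.

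Hexokinase held the largest difference of the list, which was that of Hk1 and not of Hk2. Hk1 (ENSMUSG00000037012, NCBIM37 chr10:61731603-61842656, reverse strand) encodes the hexokinase of most tissues, known from brain and red cells and able to bind the outer membrane of mitochondria. Its level was 262 and 209.8 in double-negative, 23.4 and 28.4 in GFP-only, 25.1 and 24.2 in Pdgfra-only and 20.3 and 27.2 in double-positive libraries. The double-negative libraries stood far above all others, and the other 3 populations overlapped fully. The mean of 236 ± 37.2 (SD, n = 2) was 9.53 times the mean of the other 6 libraries.

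Hk1 fell by a log2 value of 3.14 in GFP-only (limma adjusted p 1.06e-07), by 3.20 in Pdgfra-only (5.49e-08) and by 3.27 in double-positive cells (5.07e-08), each against double-negative and with a standard error of 0.20. Its interaction was 3.07 (4.95e-06). No setting tried ended any of these 4 calls, and the GFP-only difference lay between -3.59 and -2.98 over them. Among the 3 other populations Hk1 differed by -0.07, -0.13 and 0.06, none of them called.

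Hk2 (ENSMUSG00000000628, NCBIM37 chr6:82675019-82724448, reverse strand) encodes the insulin-responsive hexokinase of muscle and fat that many growing cells switch on. Its level was 5.31 and 4.60 in double-negative, 10.3 and 6.56 in GFP-only, 2.40 and 6.09 in Pdgfra-only and 15.1 and 10.2 in double-positive libraries. Double-positive libraries were the highest on average and Pdgfra-only the lowest, but GFP-only reached into the double-positive range, and no step in the order double-positive, GFP-only, double-negative, Pdgfra-only was called. It was also the member with the fewest reads, and adding 1 to every level before taking logs understates the change of a gene this low.

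Double-positive cells exceeded double-negative cells in Hk2 by a log2 value of 1.2 (limma adjusted p 0.0318), with a standard error of 0.43. This call was not firm. It ended without double-negative replicate 1 (1.26, 0.0701), double-negative replicate 2 (1.09, 0.112) or double-positive replicate 1 (0.91, 0.167), with median centring (0.69, 0.182) and with mitochondrial genes left out (1.05, 0.0597), in a range of adjusted p from 0.0208 to 0.182. The GFP difference in Pdgfra-positive cells was larger at 1.45, with an unadjusted limma p of 0.00537, yet its adjusted p was 0.0763 and ran from 0.0609 to 0.416 over the settings. Without both double-negative libraries that adjusted p was 0.0757. Hk2 thus leaned towards double-positive cells without passing the threshold inside the Pdgfra-positive pair.

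Phosphofructokinase, the committing step, also changed its make-up. Pfkl (ENSMUSG00000020277, NCBIM37 chr10:77449692-77472828, reverse strand) encodes the liver-type subunit, which red cells also hold. Its level was 37.2 and 31.7 in double-negative, 8.86 and 12.2 in GFP-only, 9.96 and 10.8 in Pdgfra-only and 15.1 and 5.32 in double-positive libraries. Double-negative libraries were the highest, and the other populations overlapped, with the widest spread between the double-positive libraries. Its double-negative mean was 3.32 times the mean of the other 6 libraries.

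Pfkl fell by a log2 value of 1.63 in GFP-only (limma adjusted p 0.00373), by 1.63 in Pdgfra-only (0.0032) and by 1.81 in double-positive cells (0.00167), with a standard error of 0.39. All of these calls held under every setting tried, although that of GFP-only held narrowly in its weakest fit. The GFP-only difference lay between -2.08 and -1.42 over the settings. The size of the double-positive fall rested partly on double-positive replicate 2, and without it the difference was -1.14. The interaction of 1.45 missed the threshold narrowly (0.0506) and passed it under several settings, among them edgeR and voom. Among the 3 other populations the differences were -0.18, -0.18 and 0.00, and none was called.

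Pfkp (ENSMUSG00000021196, NCBIM37 chr13:6579014-6648023, reverse strand) encodes the platelet-type subunit of the same enzyme. Its level was 6.75 and 15.9 in double-negative, 26.8 and 33.3 in GFP-only, 30.1 and 33.1 in Pdgfra-only and 18.9 and 17.7 in double-positive libraries. The single-mark populations were the highest and overlapped each other, double-positive libraries lay between, and the double-negative pair was lowest and far apart. No step between neighbours in the order Pdgfra-only, GFP-only, double-positive, double-negative was called.

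Across more than a single step Pfkp did differ, with log2 values of 1.43 in GFP-only (limma adjusted p 0.0026) and 1.51 in Pdgfra-only (0.00158) against double-negative, and a standard error of 0.33. Both calls held under every setting tried, although without double-negative replicate 2 they were larger and without replicate 1 they were 0.87 and 0.95. Double-positive cells exceeded double-negative cells by 0.75, which was not called (0.0644) but was with the replicate block or without double-negative replicate 2. The interaction of -2.19 was called (0.00216) and stayed called under every setting tried, between -2.75 and -1.63. GFP within Pdgfra-positive cells gave -0.76, with an unadjusted limma p of 0.0387 and an adjusted p of 0.236 that ran from 0.0578 to 0.547. Pdgfra within GFP-positive cells gave -0.68 (0.158) and passed the threshold with mitochondrial genes left out (-0.99, 0.0354). It also passed without either double-negative library or without both. Pfkl and Pfkp thus stood at opposite ends of their ranges in double-negative cells.

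Pfkp has a limit of its own: 372 bases of its exons overlap Pitrm1 on the opposite strand. Pitrm1 measured 340.2 and 304 in double-negative libraries and between 73.4 and 92.4 in the others, the reverse of the pattern of Pfkp. The libraries were made from amplified cDNA by a DNA library protocol, which does not keep strand, so the split of reads between this pair is uncertain.

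Aldolase was the member with no difference called under the scaling used here. Aldoa (ENSMUSG00000030695, NCBIM37 chr7:133938748-133944265, reverse strand) encodes the aldolase of muscle and red cells, which splits the doubly phosphorylated sugar. Its level was 119 and 90.4 in double-negative, 119 and 119 in GFP-only, 109.5 and 98.2 in Pdgfra-only and 119 and 97.0 in double-positive libraries. Double-negative and double-positive libraries spanned most of the range, and both GFP-only libraries lay above both Pdgfra-only libraries. The 6 pairwise log2 differences ran from -0.15 to 0.20 with a standard error of 0.17, and none was called. A miss of the threshold does not show equal levels, and with median centring Aldoa was called lower than double-negative in Pdgfra-only (-0.46, limma adjusted p 0.0343) and in double-positive cells (-0.43, 0.0431). With mitochondrial genes left out it was called higher in GFP-only than in Pdgfra-only (0.48, 0.0445).

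Phosphoglycerate kinase was lower in cells with Pdgfra. Pgk1 (ENSMUSG00000062070, NCBIM37 chrX:103382439-103399038, forward strand) encodes the enzyme of the earliest ATP-yielding step. Its level was 63.0 and 57.7 in double-negative, 58.6 and 60.8 in GFP-only, 41.7 and 41.1 in Pdgfra-only and 33.8 and 37.5 in double-positive libraries. All 4 libraries without Pdgfra lay above all 4 libraries with it, and double-negative and GFP-only overlapped. In the order double-negative, GFP-only, Pdgfra-only, double-positive, the step between GFP-only and Pdgfra-only was called and the outer steps were not.

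Pgk1 fell with Pdgfra by a log2 value of 0.73 in GFP-positive cells (limma adjusted p 0.00693) and by 0.53 in GFP-negative cells (0.0148), with a standard error of 0.17. The interaction was -0.20 (0.523), so no difference between these falls was called. The fall in GFP-positive cells kept its call under every setting tried, but only narrowly in the weakest fit. Its log2 value lay between -1.04 and -0.66 over the settings. This fall was -0.73 (0.00679) without both double-negative libraries, and does not use them. The fall in GFP-negative cells ended without double-negative replicate 1 (-0.47, 0.0666), Pdgfra-only replicate 1 (-0.54, 0.0535) or Pdgfra-only replicate 2 (-0.52, 0.0625), in a range of adjusted p from 0.000247 to 0.0666. Double-positive cells were lower than double-negative cells by -0.74 (0.00201), also under every setting tried.

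Pgk1 was also the member called between the single-mark populations, at 0.52 higher in GFP-only (limma adjusted p 0.0351), and at 0.52 (0.0352) without the double-negative libraries. That call was not firm. It ended without GFP-only replicate 1 (0.54, 0.108), GFP-only replicate 2 (0.49, 0.134), Pdgfra-only replicate 1 (0.53, 0.116) or Pdgfra-only replicate 2 (0.51, 0.132), and without the mean-variance trend (0.0912), in a range from 0.0034 to 0.134. With median centring Pgk1 was also called lower in GFP-only than in double-negative cells (-0.47, limma adjusted p 0.0337). That log2 difference was -0.01 under the scaling used here and 0.13 with mitochondrial genes left out, without a call in either.

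Enolase was moderately higher in the double-negative population. Eno1 (ENSMUSG00000063524, NCBIM37 chr4:149610830-149622988, forward strand) encodes the enolase of most tissues, which makes phosphoenolpyruvate. Its level was 202 and 176 in double-negative, 116 and 129.5 in GFP-only, 137 and 121 in Pdgfra-only and 140.2 and 101 in double-positive libraries. The double-negative libraries were the highest, and the others overlapped with no called step in the order Pdgfra-only, GFP-only, double-positive.

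Eno1 fell by a log2 value of 0.62 in GFP-only (limma adjusted p 0.00807), by 0.55 in Pdgfra-only (0.0136) and by 0.66 in double-positive cells (0.00495), with a standard error of 0.17. Each call ended under some setting. The GFP-only fall missed the threshold without GFP-only replicate 1 (-0.54, 0.0697) and without the mean-variance trend (0.0599), in a range from 9.9e-05 to 0.0697. The Pdgfra-only fall missed it without double-negative replicate 1 (-0.45, 0.0727), without Pdgfra-only replicate 2 (-0.46, 0.102) and without the trend (0.0779), in a range from 0.000143 to 0.102. The double-positive fall missed it without double-positive replicate 2 (-0.43, 0.0599), in a range from 4.94e-05 to 0.0599. The direction was the same in all of these fits.

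The muscle-type pyruvate kinase gene was low in the double-negative population. Pkm2 (ENSMUSG00000032294, NCBIM37 chr9:59504383-59527182, forward strand) is the table's older symbol for Pkm, whose alternatively spliced exons give both muscle-type isoforms, and a level per gene cannot tell these apart. Its level was 15.9 and 27.9 in double-negative, 118 and 152 in GFP-only, 101 and 88.1 in Pdgfra-only and 111 and 82.4 in double-positive libraries. The double-negative libraries lay far below all others, GFP-only was the highest on average, and the upper 3 populations had no called step between them. The mean of the other 6 libraries was 4.96 times the double-negative mean of 21.9 ± 8.49 (SD, n = 2).

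Pkm2 rose by a log2 value of 2.60 in GFP-only (limma adjusted p 2.63e-06), by 2.11 in Pdgfra-only (1.22e-05) and by 2.13 in double-positive cells (1.21e-05), with a standard error of 0.25. The interaction was -2.59 (8.71e-05). No setting tried ended these 4 calls, and the GFP-only rise lay between 2.15 and 2.99 over them. Pkm2 was thus the lone member called higher than double-negative in every other population. Between the other populations it differed by 0.02, -0.48 and 0.49 without a call. With mitochondrial genes left out it was called lower in double-positive than in GFP-only cells (-0.79, limma adjusted p 0.0239) and higher in GFP-only than in Pdgfra-only cells (0.78, 0.0234). Pkm2 was also called between the single-mark populations when those were fitted alone.

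Lactate dehydrogenase had the highest mean of the members over all libraries and was highest in the double-negative population. In GFP-only libraries Pkm2 was at 118 and 152 and Ldha at 151 and 117, so neither was above the other in both. Ldha (ENSMUSG00000063229, NCBIM37 chr7:54096845-54110997, forward strand) encodes the muscle-type subunit, which favours making lactate. Its level was 499.9 and 421 in double-negative, 151 and 117 in GFP-only, 186 and 166 in Pdgfra-only and 261 and 184 in double-positive libraries. Double-negative libraries were the highest, GFP-only libraries were the lowest, and Pdgfra-only and double-positive libraries overlapped between them. In the order double-negative, double-positive, Pdgfra-only, GFP-only, the step below double-negative was the one called, although with the replicate block the last step was called as well.

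Ldha fell by a log2 value of 1.78 in GFP-only (limma adjusted p 4.89e-06), by 1.38 in Pdgfra-only (3.25e-05) and by 1.06 in double-positive cells (0.000294), with a standard error of 0.18, and its interaction was 2.1 (4.02e-05). These calls held under every setting tried. Within GFP-positive cells Ldha was 0.72 higher with Pdgfra (0.0129), and 0.72 (0.00963) without both double-negative libraries. That rise ended without GFP-only replicate 2 (0.54, 0.139), double-positive replicate 1 (0.47, 0.12), the mean-variance trend (0.0935) or the mitochondrial genes (0.41, 0.107), in a range from 0.00135 to 0.139. Its rise from GFP-only to double-positive and the fall of Pgk1 in the same comparison went opposite ways.

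**Figure D2:**
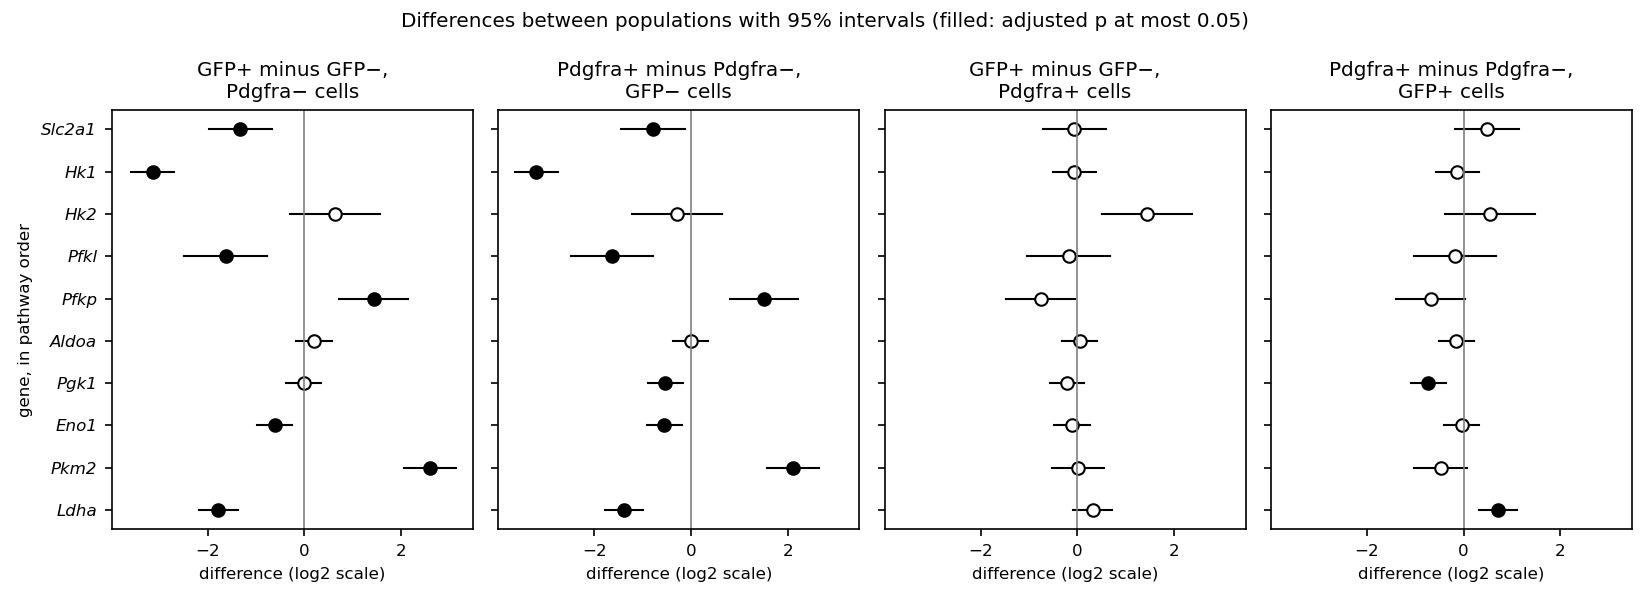
Log2 difference of each of the 10 members with its 95% interval in the 4 comparisons that change 1 mark, where filled points are called by limma. Against double-negative cells Hk1 lies at -3.14 and -3.20 and Pkm2 at 2.60 and 2.11, while no member is filled for GFP in Pdgfra-positive cells.

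Summed over the 10 members, the level was 1239 and 1055 in double-negative, 641 and 667 in GFP-only, 654 and 605 in Pdgfra-only and 748 and 575 in double-positive libraries. The double-negative libraries were the highest in this sum, and the rest overlapped. Ldha, Hk1 and Eno1 make up most of the double-negative sum. Because a long transcript yields more reads, the members were also ranked by level per kilobase of exon.

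Per kilobase, Ldha ranked 1 of 10 in double-negative (154), Pdgfra-only (59.0) and double-positive cells (74.6). In GFP-only cells Pkm2 was at 56.3 per kilobase and Ldha at 45.0, a gap that was not tested. Hk2 ranked 10 of 10 in double-negative (0.830), GFP-only (1.41) and Pdgfra-only cells (0.711), and Pfkp did so in double-positive cells (1.95). Ldha, Aldoa, Eno1 and Pgk1 were among the upper 5 of the 10 members in all 4 populations on this scale. Hk1 ranked 4 of 10 in double-negative cells, at 27.7 per kilobase, and 7 or 8 in the other populations, at 2.78 to 3.04. Pkm2 fell from rank 1 or 2 in the other populations to rank 6 in double-negative cells, at 9.18 per kilobase.

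Several steps can be run by more than 1 gene, so each member's share of its enzyme was taken on the scale per kilobase. These shares, and the partners Ldhb and Eno3, were chosen after the values had been seen and carry no test. Hk1 made up 97.1% ± 0.159 (SD, n = 2) of Hk1 and Hk2 together in double-negative cells and between 48.5% and 88.0% in the other libraries. Hk1 and Hk2 came nearest to equal parts in double-positive replicate 1. The hexokinase total was 28.5 per kilobase in double-negative cells and between 3.34 and 4.90 elsewhere.

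Pkm2 made up 10.3% ± 3.65 of Pkm2 and Pklr in double-negative cells and between 98.0% and 99.7% in the other libraries. Pklr encodes the pyruvate kinase of liver and red cells, and its level was 257 and 255 in double-negative, 3.28 and 2.44 in GFP-only, 0.378 and 1.93 in Pdgfra-only and 0.414 and 1.87 in double-positive libraries. The gene that supplied most pyruvate kinase transcript was thus Pklr in double-negative cells and Pkm2 in the others. Pklr fell by a log2 value of 6.07 in GFP-only and by 7.0 in Pdgfra-only, both called by limma. These values understate the fall, because 1 was added to every level and Pklr had as few as 1 read in a library. The enzyme's total was 88.3 per kilobase in double-negative cells and between 35.0 and 64.2 elsewhere. The low level of Pkm2 in double-negative cells was therefore not a low level of pyruvate kinase transcript as a whole.

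Pfkp made up 4.15% ± 2.17 of phosphofructokinase in double-negative cells and between 16.8% and 32.7% in the other libraries. Pfkl made up 27.5% in double-negative cells and between 12.1% and 28.5% elsewhere, so its share overlapped although its level was higher. Per kilobase the largest share in every library belonged to Pfkm, the muscle-type subunit, at 68.4% in double-negative cells and between 41.6% and 69.1% in the others. This order depends on the exon lengths used, 3.05 kb for Pfkm and 9.4 kb for Pfkp. By level, Pfkp was above Pfkm in GFP-only (26.8 and 33.3 against 11.8 and 13.8) and in Pdgfra-only libraries (30.1 and 33.1 against 20.5 and 24.2). In double-negative and double-positive libraries Pfkm was above Pfkp by level as well.

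Eno1 made up 91.4% ± 1.14 of enolase in double-negative cells and between 67.2% and 76.9% in the other libraries. Eno2, the neuronal enolase, made up 0.211% in double-negative cells and between 1.72% and 14.1% elsewhere, with its highest shares in Pdgfra-only libraries. Eno3, the muscle enolase, made up 8.40% in double-negative cells and between 15.6% and 24.0% in the rest. Ldha made up 98.7% ± 0.469 of Ldha and Ldhb in double-negative cells and between 83.3% and 88.7% in the other libraries, the remainder being Ldhb, the heart-type subunit. In each of these 5 enzymes the double-negative share of at least 1 gene thus lay outside the range of the other libraries. In all but phosphofructokinase 1 gene supplied at least 87.1% in each double-negative library.

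**Figure D3:**
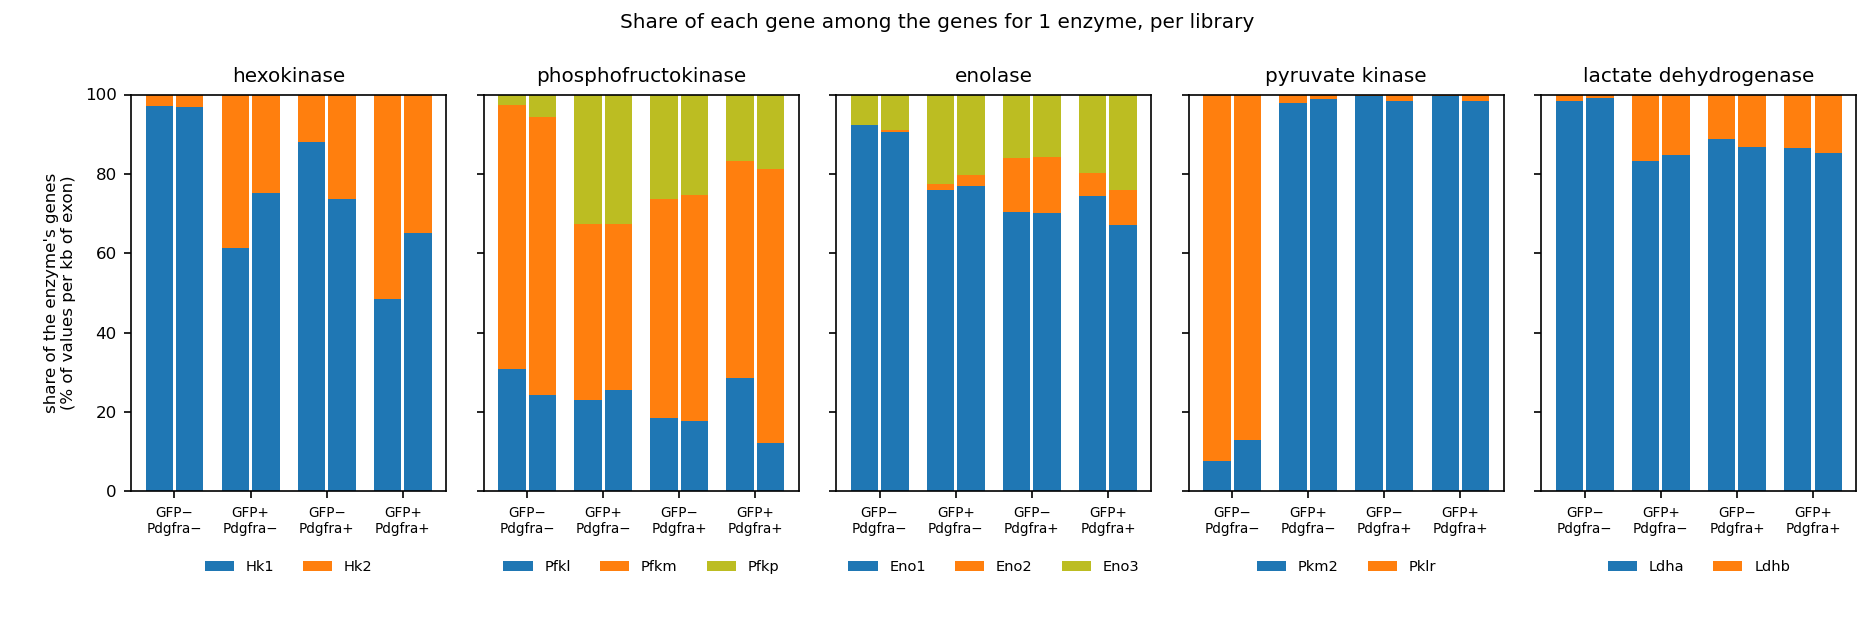
Share of each gene in the level per kilobase of its enzyme, in percent, as stacked bars for each of the 8 libraries. Hk1 holds 97.1% of hexokinase and Pklr 89.7% of pyruvate kinase in double-negative cells on average, while Pkm2 holds at least 98.0% in every other library.

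Other enzymes of the route were counted from a list of which 12 had values here. Hk3, Hkdc1, Aldoc, Pgk2 and Ldhc were among those that had no value here. Against double-negative, 3 were called higher and 4 lower in GFP-only, and 2 higher and 6 lower in Pdgfra-only, with a median of -0.19 in the latter beside 0.17 over all genes. Of all genes 53.7% were called in GFP-only and 59.7% in Pdgfra-only, so the 7 and 8 of 12 called here are near the share at large. Gapdh, which oxidises the triose just before Pgk1 acts, measured 115 and 144 in double-negative, 103 and 99.4 in GFP-only, 40.2 and 44.7 in Pdgfra-only and 46.0 and 54.8 in double-positive libraries. Like Pgk1, Gapdh was lower in all 4 libraries with Pdgfra, by -1.0 in GFP-positive and -1.58 in GFP-negative cells, both called. Adpgk, a kinase that phosphorylates glucose with ADP, was the gene of this list called for GFP in Pdgfra-positive cells, at 0.95 higher (limma adjusted p 0.0474). Tpi1, which interconverts the trioses and was chosen after its values were seen, measured 47.0 and 53.6 in double-negative libraries and between 20.3 and 29.7 elsewhere. Pgam1, between Pgk1 and Eno1 in the route, was not called in any of the 4 comparisons that change 1 mark. The list summed to 714 and 757 in double-negative libraries and to between 295 and 344 in the others.

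Carriers beside Slc2a1 were counted from a list of 13, of which 10 had values here, Slc2a2, Slc2a6 and Slc16a8 being without. Against double-negative, 3 were called higher and 4 lower in GFP-only, beside 30.1% and 23.6% of all genes, and 3 higher and 5 lower in Pdgfra-only, beside 32.9% and 26.8%. The lactate carrier Slc16a1 measured 192 and 156 in double-negative, 22.5 and 21.0 in GFP-only, 7.69 and 14.1 in Pdgfra-only and 18.4 and 19.4 in double-positive libraries. Its companion Bsg, which brings lactate carriers to the membrane, measured 269 and 280.0 in double-negative libraries and between 83.2 and 161 elsewhere. Both were highest where Ldha and Slc2a1 were highest. The glucose carrier Slc2a12 went the other way, at 0.431 and 2.24 in double-negative libraries and 22.9 and 21.0 in GFP-only, and so did Slc2a10, at 0.431 and 0.354 against 18.5 and 14.7 in Pdgfra-only libraries. With these, the list summed to 511 and 498 in double-negative libraries and to between 160.0 and 243 in the others, an excess that Slc16a1 and Bsg carried.

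Beside the members, the 17 genes that set the level of fructose bisphosphate or admit pyruvate to mitochondria had 5 called higher and 7 lower in GFP-only against double-negative, beside 30.1% and 23.6% of all genes, and 5 higher and 8 lower in Pdgfra-only, beside 32.9% and 26.8%. Pfkfb3, which makes the activator of phosphofructokinase, measured 4.45 and 4.13 in double-negative libraries and between 25.3 and 39.5 elsewhere, with log2 values of 2.73 in GFP-only and 2.75 in Pdgfra-only. Pdk4, which holds pyruvate back from mitochondria, measured 4.45 and 2.24 in double-negative, 67.4 and 73.4 in GFP-only, 18.5 and 22.7 in Pdgfra-only and 38.8 and 29.8 in double-positive libraries. Pfkp and Pkm2 therefore had company in being low in the double-negative libraries. The list summed to 795 and 727 in double-negative libraries and to between 485 and 636 in the others.

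Routes that branch from glycolysis are given list by list, and differences between the lists were not tested. Their counts are to be read against the genes at large. Of these, 30.1% were called higher and 23.6% lower in GFP-only, and 32.9% higher and 26.8% lower in Pdgfra-only. Of 8 pentose phosphate genes, 1 was called higher and 4 lower both in GFP-only and in Pdgfra-only against double-negative, and the list summed to 529.6 and 461 in double-negative libraries and to between 244 and 319 in the others. Of 4 genes of gluconeogenesis with values, 2 were called lower in GFP-only and 4 in Pdgfra-only, with sums of 110.3 and 79.9 in double-negative libraries and between 25.2 and 49.4 elsewhere, while Fbp1, Fbp2 and G6pc had no value here. Of 10 glycogen genes, 6 were called higher and 1 lower in GFP-only and 3 higher and 1 lower in Pdgfra-only, with sums of 167 and 136 in double-negative libraries and between 259 and 332 elsewhere. Of 15 citric acid cycle genes, 10 were called lower in GFP-only and 14 in Pdgfra-only, with a median of -1.27 in the latter beside 0.17 over all genes and sums of 2151 and 2082 in double-negative libraries and between 754 and 1116 elsewhere. Of 18 hypoxia-inducible factors and targets outside glycolysis, 7 were called higher and 2 lower in GFP-only and 8 higher and 1 lower in Pdgfra-only, with sums of 520.5 and 515 in double-negative libraries and between 779.6 and 837 elsewhere. For GFP in Pdgfra-positive cells, where 5.35% of all genes were called, the genes of these pathway lists called were Adpgk, Mdh2 (0.61) of the citric acid cycle and Epas1 (1.74) of the hypoxia list, all higher. For Pdgfra in GFP-positive cells, where 24.2% of all genes were called, 3 of the other glycolytic enzymes were called higher and 1 lower, 4 of 10 carriers higher and 3 lower, 1 gene of the pyruvate gate list higher and 4 lower, 2 pentose phosphate genes higher, 1 gluconeogenesis gene higher, 1 glycogen gene each way, 1 citric acid cycle gene lower, and 3 hypoxia genes higher and 2 lower. Citric acid cycle genes were thus called lower outside double-negative cells in a larger share than genes at large.

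Each member was set beside the genes whose log2 levels over the 8 libraries tracked it best by Pearson's r, out of 9018 genes with a mean level of at least 10. The 8 libraries fall into 4 pairs with the double-negative pair apart for most members, so r describes mainly that separation and says nothing of shared function. Slc2a1 was most like Htt (0.97), 2210016F16Rik (0.97) and Fam20b (0.965). Hk1 was most like Itga4 (0.997), Cep290 (0.996) and Haus5 (0.996). Hk2, which did not set double-negative apart, had the weakest likenesses, with Slc12a7 (0.888) and Slc36a2 (0.882). Pfkl was nearest to Gnpat (0.988), Wbscr27 (0.983) and Gm16286 (0.98). Pfkp was nearest to Serac1 (0.975), Acad8 (0.965) and Cav1 (0.962). Aldoa was nearest to Mkrn2 (0.964), Bcl2l11 (0.932) and Usp30 (0.93). Pgk1 was closest to Rmnd5a (0.985), Cdk2 (0.985) and Ganc (0.984). Eno1 was closest to Gm16286 (0.981), Hsdl1 (0.979) and D1Bwg0212e (0.977), the first of which it shared with Pfkl. Pkm2 was close to Irs2 (0.995) and Nr4a2 (0.992). Ldha was closest to Med14 (0.996), Bsg (0.989) and Ifi30 (0.986), and Bsg is the companion of lactate carriers described above.

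Mitochondrial transcripts took unequal shares of the reads, which bears on how libraries are scaled. They made up 36.9% and 39.1% of reads in double-negative, 24.2% and 22.2% in GFP-only, 14.4% and 14.5% in Pdgfra-only and 13.0% and 13.7% in double-positive libraries. Leaving those genes out before scaling moved the median of all genes by 0.14 in GFP-only and by -0.13 in Pdgfra-only against double-negative, by -0.16 in double-positive against double-negative, by -0.30 in double-positive against GFP-only, by 0.27 between the single-mark populations and by -0.17 in the interaction. In double-positive against GFP-only it turned 2080 genes called higher and 1768 lower into 1543 and 3456. Between the single-mark populations it turned 2150 higher and 2277 lower into 3600 and 1674. Scaling each library to its median gene instead moved the median of all genes by -0.45 in GFP-only, by -0.45 in Pdgfra-only and by -0.48 in double-positive cells against double-negative, and by 0.43 in the interaction.

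Under that median centring the genes called in GFP-only against double-negative went from 4787 higher and 3740 lower to 3550 and 5569. In Pdgfra-only they went from 5226 and 4250 to 3913 and 5720, in double-positive cells from 5221 and 4189 to 3834 and 5846, and in the interaction from 3032 and 3999 to 4427 and 2989. Of the members, Pkm2 was called higher than double-negative in GFP-only under median centring as well (2.15, limma adjusted p 4.02e-06), and so was Pfkp (0.98, 0.0167). The members called lower than double-negative moved further down by the same shift. Aldoa in GFP-only changed sign under it, from 0.20 to -0.26, without a call in either fit.

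Other loci can share reads with the members. The exons of annotated genes on NCBIM37 were searched for copies at 90% identity or more over at least 300 bases. Copies outside annotated exons were not searched for. The search found 18 copies of 5 members: 1 of Aldoa, 2 of Pgk1, 3 of Eno1, 4 of Pkm2 and 8 of Ldha. None of the 18 had a value here, and the authors' tool can divide such reads among loci, so the levels of these 5 members are uncertain to that extent. Hk1 shares 157 exon bases with 2210417K05Rik, which measured at most 2.48 in any library. Slc2a1 shares 105 exon bases with Gm12868, which had no value here.

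Promoters were read because Hk1, Slc2a1, Pfkl, Eno1 and Ldha were high together in the double-negative libraries while Pkm2 was low. RefSeq windows on GRCm38.p6, from 250 bases before to 50 after a start, were matched for all 10 members, with 17 windows of 300 bases in all. The letters ACGTG, or CACGT on the other strand, are a form of the core bound by hypoxia-inducible factors and lie within the CACGTG box of other factors. Other forms of that core were not searched for. ACGTG or CACGT occurred in 8 of 17 member windows and in 19.6% of the 32851 promoters of the same length. Of the 8, the 2 of Aldoa overlap, and among the 17, 2 windows of Eno1 overlap as well. The windows are therefore not independent, and the difference between these shares was not tested. The windows of Pfkl, Pfkp and Eno1 held none of these letters, which does not show that they lack other forms of the core. The letters AGATAA, or TTATCT on the other strand, match the site of GATA factors. They occurred in 0 of 17 member windows, in 1 window of Pklr and in 11.2% of all promoters. A match is a description of letters and not a bound site, and the absence of a match concerns only these windows.

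Shown are windows of the member with the most matches (Ldha, chr7:46845554-46845853, forward strand), of the member that fell most outside double-negative cells (Hk1, chr10:62340372-62340671, reverse strand), and of the pyruvate kinase pair that changed places (Pkm, chr9:59656977-59657276, forward strand, and Pklr, chr3:89135892-89136191, forward strand). Capitals mark ACGTG or CACGT in the members and AGATAA in Pklr. The Ldha window holds 5 matches when both strands of each CACGTG are counted, and the Hk1 and Pkm windows hold 2 each. Each of these 4 genes had another window, not shown. Those of Ldha, Hk1 and Pkm held no ACGTG or CACGT, and that of Pklr held no AGATAA. Hk1, high in double-negative cells, and Pkm, low there, thus both carry these letters in the window shown.
Ldha: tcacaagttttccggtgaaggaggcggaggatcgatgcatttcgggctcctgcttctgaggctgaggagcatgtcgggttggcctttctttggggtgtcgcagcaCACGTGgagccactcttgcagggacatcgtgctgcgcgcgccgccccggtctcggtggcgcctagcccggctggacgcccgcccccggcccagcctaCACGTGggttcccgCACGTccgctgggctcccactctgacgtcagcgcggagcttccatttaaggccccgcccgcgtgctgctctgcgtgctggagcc
Hk1: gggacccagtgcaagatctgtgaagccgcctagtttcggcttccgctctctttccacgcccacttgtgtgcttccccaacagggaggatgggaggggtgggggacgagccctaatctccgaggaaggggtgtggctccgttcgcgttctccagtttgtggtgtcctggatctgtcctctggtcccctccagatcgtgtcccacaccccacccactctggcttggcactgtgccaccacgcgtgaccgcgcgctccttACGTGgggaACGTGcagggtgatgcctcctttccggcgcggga
Pkm: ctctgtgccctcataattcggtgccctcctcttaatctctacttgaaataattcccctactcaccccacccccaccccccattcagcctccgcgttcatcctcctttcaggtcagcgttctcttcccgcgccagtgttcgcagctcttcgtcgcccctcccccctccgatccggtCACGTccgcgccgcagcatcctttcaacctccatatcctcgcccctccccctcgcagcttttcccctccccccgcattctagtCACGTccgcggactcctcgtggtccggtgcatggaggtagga
Pklr: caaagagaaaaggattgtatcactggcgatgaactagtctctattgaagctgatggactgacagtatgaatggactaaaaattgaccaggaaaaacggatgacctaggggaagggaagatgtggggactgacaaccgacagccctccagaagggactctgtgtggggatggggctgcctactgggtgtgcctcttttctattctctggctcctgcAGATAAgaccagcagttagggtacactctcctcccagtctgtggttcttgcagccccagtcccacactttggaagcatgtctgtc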

How the data were processed

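RNA was sequenced from 8 libraries of 4 sorted populations. The authors trimmed reads with cutadapt, quantified genes with RSEM 1.17 on NCBIM37 and normalised with limma voom. The deposited signal is the voom scale before the log, reads plus 0.5 for each 1e6 of effective library size, from which whole reads were recovered for 100.0% of values within 0.05. Effective size is total reads times a factor of 0.8 to 1.134. Differences were fitted with limma 3.58.1 in R 4.3.3 (trended eBayes on log2 of level plus 1, all 8 libraries) and adjusted by Benjamini-Hochberg over 15880 genes. The fit was tested on simulated data. Alternatives were a pseudocount of 0.1, removal of low genes, no trend, other scalings, voom, edgeR 4.0.16, a replicate block, fewer populations and leaving out libraries. edgeR called 893 and 8415 genes for GFP in Pdgfra-positive and Pdgfra-negative cells, and 3586 and 9281 for Pdgfra in GFP-positive and GFP-negative cells. Python 3.11.15, numpy 2.4.6, pandas 2.3.3, matplotlib 3.10.9 and pysam 0.24.0 made the other values and figures. Beside the 10 members, genes were named by rule: of each list the 4 highest means and the 2 largest called changes in each comparison that changes 1 mark, and for each member its 3 nearest genes by Pearson's r. Of those, the ones that help read the members are printed, and a few are not reported. Members and lists were chosen with earlier results of these data known, and the isozyme shares, Ldhb, Eno3 and Tpi1 after values were seen. Names were found for 15849 identifiers, and 74 symbols had several.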

Additional observations from a re-analysis of the deposited data

Results flagged for a closer look

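For 5 members the GFP difference depended on Pdgfra by the interaction test of limma, which sets the difference in Pdgfra-positive cells against that in Pdgfra-negative cells. On the log2 scale the interaction was 1.27 for Slc2a1, 3.07 for Hk1, -2.19 for Pfkp, -2.59 for Pkm2 and 2.1 for Ldha. Of all genes 44.3% were called in this test, so 5 of 10 is near the share at large and is no result about the list. In each of them the difference between GFP-only and double-negative cells was called and that between double-positive and Pdgfra-only cells was not. The double-negative libraries carry erythroid and proliferation transcripts, and their part in these interactions was not tested.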

How the results depend on the processing

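With 2 libraries per population, and 1 in a population when a library is left out, calls lean on the spread pooled over the other libraries. Of 33 member results, each followed over 17, 18 or 19 settings as its comparison allowed, 23 kept direction and side of the threshold throughout and 0 reversed. Among the 23, Hk2 and Pfkp for GFP in Pdgfra-positive cells were never called. Other results, such as those of Aldoa, gained a call under some settings. The cause of the following shifts was not tested. Each range of genes called below covers only the fits with a library left out. With mitochondrial genes left out, genes called were 4999 for Pdgfra in GFP-positive cells and 5274 between the single-mark populations. The latter were 4923 with the compared populations alone. Genes called for GFP in Pdgfra-positive cells were 849, and 532 without the mean-variance trend and 246 to 1083 with a library left out. For Pdgfra in GFP-negative cells, members called ranged from 5 to 8 with a library left out. For Pdgfra in GFP-positive cells, members called were 1 without the trend and 1 to 3 with a library left out, and genes called ranged from 2158 to 4056. Between the single-mark populations, members called were 0 without the trend, 2 with the compared populations alone, 3 with mitochondrial genes left out and 0 to 1 with a library left out, and genes called ranged from 2757 to 4642.

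With replicate sets as a block, which assumes that libraries of 1 set came from the same pooled pups, members called were 7 and 0 for GFP in Pdgfra-negative and Pdgfra-positive cells, 8 and 2 for Pdgfra in GFP-negative and GFP-positive cells, 2 between the single-mark populations (Pgk1 and Ldha), 9 for double-positive against double-negative, 6 for the interaction and 9 for any difference. Over all genes, libraries of the same set deviated from their population means with correlations between 0.004 and 0.081 over 6 pairs of populations. The fit without both double-negative libraries was chosen after seeing the data.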
